A study of Mus musculus with 20 samples.

Results

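The genes described here were 9 markers of the fields of the hippocampus, taken as a fixed list and found by symbol among the 35580 mouse genes to which the deposited transcripts belonged. 5 of them mark granule cells of the dentate gyrus (*Prox1*, *Dsp*, *C1ql2*, *Tdo2* and *Calb1*), 3 mark pyramidal cells of the CA fields, CA1 first (*Fibcd1*, *Spink8* and *Wfs1*), and *Zbtb20* belongs to both. All 9 were present in every file, with 1 annotated transcript for *C1ql2* and *Fibcd1*, 3 or 4 for 6 others and 21 for *Zbtb20*. RNA came from hippocampus and neocortex (called cerebral cortex in the labels) of 13.5 month old male mice, labelled as strain C57BL/6J, and each tissue was represented by 5 wild-type (WT) and 5 miR-324-null samples, 20 libraries altogether. The miR-324-null mice carry a CRISPR/Cas9 deletion of the *Mir324* locus throughout the body, and the line was founded in embryos of mixed C57BL/6 and CBA/ca background before being crossed back to C57BL/6J. *Mir324* itself was not analysed here, because these libraries do not measure a short RNA, and the genotype labels could therefore not be checked by the level of the deleted gene. Estimated counts summed to between 12752439 and 19617765 per sample.

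The dentate gyrus receives the main cortical input to the hippocampus through the perforant path, and its granule cells send mossy fibres to CA3, which in turn projects to CA1. Granule cells and the pyramidal cells of each CA field keep distinct sets of expressed genes in the adult, so the RNA of a whole hippocampus sums over fields that these genes can tell apart. In such bulk samples, fewer cells of a type and less RNA per cell cannot be told apart.

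The deleted gene encodes a microRNA, so each arm of miR-324 is shown with its seed, bases 2 to 8, in capitals, to show what was searched for in the marker genes. The mature sequences are those of RefSeq on GRCm38.p6, where both lie on the plus strand of chromosome 11, from 70012060 to 70012082 for the 5p arm and from 70012095 to 70012114 for the 3p arm. Another form of the 3p arm, with a shifted seed, was not searched.
miR-324-5p: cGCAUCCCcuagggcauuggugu
miR-324-3p: cCACUGCCccaggugcugcu

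The 7 bases complementary to these seeds, GGGATGC for the 5p arm and GGCAGTG for the 3p arm, were searched on the transcribed strand of all annotated 3′UTRs of GRCm38. Of the 9 markers only *Zbtb20* held a match, with 2 for the 5p arm and 3 for the 3p arm, all in the 3′UTR of transcript Zbtb20-204, which is 23858 bases long. The matches are printed in capitals in their surroundings, and none was followed by an A. The 5p matches lay at chr16:43622421-43622427 and chr16:43634271-43634277 on the plus strand.
Zbtb20, 5p match 1: gtttttatgatGGGATGCtatcagttctt
Zbtb20, 5p match 2: aaacaagtgtgGGGATGCtgaggggctcc
The 3p matches lay at chr16:43633630-43633636, chr16:43635152-43635158 and chr16:43638910-43638916.
Zbtb20, 3p match 1: tcttattgtatGGCAGTGggttagtacag
Zbtb20, 3p match 2: ccagggccaatGGCAGTGgcctatgagga
Zbtb20, 3p match 3: gaagatggagaGGCAGTGcgccctgaggc

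Over all 21007 genes with an annotated 3′UTR, 7.8% held a 5p match and 13.5% a 3p match. Long 3′UTRs hold more of them, and of the 3 genes with a 3′UTR of similar length (0.8 to 1.25 times that of *Zbtb20*, itself included), 2 held a 5p match and 2 a 3p match. For the 3′UTR of *Prox1*, 5185 bases long and with no match, 23.2% of 969 genes of similar length held a 5p match. A match is a run of letters and does not show that a site is used.

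The markers separated the tissues in WT mice, as a check of the tissue labels. The list was chosen with earlier results of these data known, so this check is not an independent one. A gene could pass edgeR's default filter on low counts through hippocampus alone. *Dsp*, *Tdo2* and *Spink8* had only 1 to 22, 7 to 14 and 2 to 10 counts in WT neocortex samples. Of the 9 genes, 8 were higher in WT hippocampus than in WT neocortex and *Calb1* was not called, by edgeR's quasi-likelihood test at a Benjamini-Hochberg adjusted p of at most 0.05, where 18.1% of the 14894 genes tested were higher. The same 8 genes had ranges that did not overlap between the tissues, against 13.1% of all genes higher in this way. The list had a median log2 fold change of 3.13, against 0.00 (-0.000771) over all genes.

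*Dsp* encodes desmoplakin, a plaque protein that anchors intermediate filaments at desmosomes. It had 44.1, 49.3, 65.1, 44.2 and 31.6 CPM (counts relative to the size of the library, scaled by TMM) in WT hippocampus replicates 1 to 5 and 1.5, 0.434, 1.32, 0.0706 and 0.343 CPM in WT neocortex. The lowest hippocampal value was far above every neocortical one, and the log2 fold change of 5.96 (SE 0.33, adjusted p = 2.2e-08, edgeR's quasi-likelihood test) was the highest of the 9. Its neocortical level rested on 1 to 22 counts a sample.

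*C1ql2* encodes a secreted C1q-like protein that granule cells place at mossy fibre synapses. Its level was 43.2, 76.8, 97.8, 80.8 and 53.5 CPM in WT hippocampus and 4.49, 0.579, 3.29, 3.04 and 1.30 CPM in WT neocortex, with no overlap and a log2 fold change of 4.78 (SE 0.332). *Prox1*, a homeobox factor needed to form and keep granule cell identity, had 76.5, 111, 113, 114 and 80.7 CPM in WT hippocampus and 17.7, 16.7, 15.7, 15.5 and 18 CPM in WT neocortex. The neocortical samples of *Prox1* were close together, at 15.6% to 18.2% of the mean of WT hippocampus, and its log2 fold change was 2.57 (SE 0.123). *Tdo2* encodes tryptophan 2,3-dioxygenase, which opens the kynurenine pathway, and it ranged from 4.01 to 7.0 CPM in WT hippocampus and from 0.476 to 0.961 CPM in WT neocortex (log2 fold change 3.13, SE 0.226).

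*Calb1* encodes calbindin, a calcium buffer that granule cells share with CA1 pyramidal cells, many neocortical neurons and some interneurons. Its level was 85.5 to 108 CPM in WT hippocampus and 70.4 to 101 CPM in WT neocortex. These ranges overlapped widely, and its log2 fold change of 0.12 (SE 0.093) did not pass the test in WT mice (adjusted p = 0.353, edgeR's quasi-likelihood test).

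Among the CA markers, *Spink8*, which encodes a serine protease inhibitor of the Kazal type, had 16.0, 15.4, 15.7, 11.9 and 12.6 CPM in WT hippocampus and 0.340, 0.145, 0.329, 0.212 and 0.686 CPM in WT neocortex. *Fibcd1*, a membrane receptor for acetylated sugars, had 137, 129, 173, 142 and 136 CPM in WT hippocampus and 5.17, 7.67, 5.66, 6.21 and 6.86 CPM in WT neocortex. Neither gene overlapped between tissues, with log2 fold changes of 5.34 (SE 0.228) for *Spink8* and 4.51 (SE 0.108) for *Fibcd1*.

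*Wfs1* encodes wolframin, a membrane protein of the endoplasmic reticulum that superficial neocortical neurons also make. It had 153, 166, 108, 130 and 169 CPM in WT hippocampus and 81.5, 85.0, 75.3, 51.5 and 82.8 CPM in WT neocortex, so the tissues were closer than for the other called genes but still apart (log2 fold change 0.95, SE 0.142, adjusted p = 1.5e-04, edgeR's quasi-likelihood test). *Zbtb20*, a zinc finger repressor required for the identity of hippocampal pyramidal and granule cells and also made by astrocytes, had 182, 207, 222, 223 and 175 CPM in WT hippocampus and 53.1, 60.1, 53.3, 58.5 and 58.9 CPM in WT neocortex. Its tissues did not overlap, and the log2 fold change was 1.83 (SE 0.0742).

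**Figure D1:**
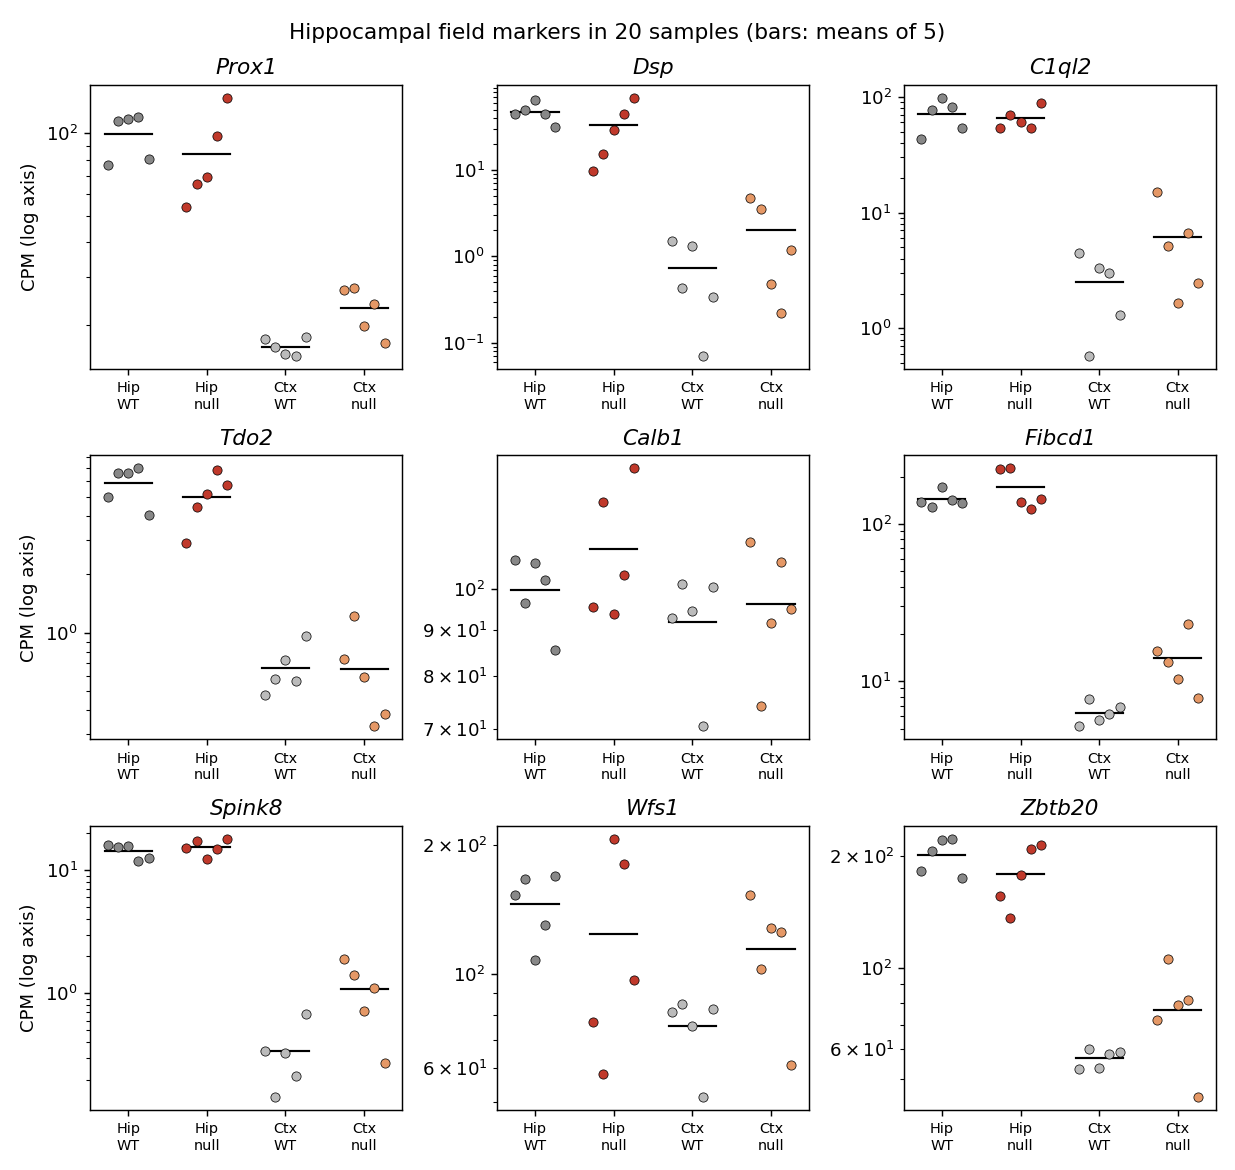
CPM (log axis, each panel with its own range) of the 9 markers in each of 20 samples of hippocampus (Hip) and neocortex (Ctx), WT or miR-324-null; points run from replicate 1 to 5 within a group and bars are means of 5 samples. *Calb1* overlaps across all groups, while *Dsp*, *C1ql2*, *Fibcd1* and *Spink8* stand over 10 times higher in the hippocampus mean of either genotype.

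Compared per length, in TPM, which divides counts by transcript length and by the library's total, the order of levels differed between the tissues. In WT hippocampus *Wfs1* stood at 68.3 ± 11.9 TPM (SD, n = 5), *C1ql2* at 62.6 ± 20.7, *Fibcd1* at 50.1 ± 6.62, *Spink8* at 45.3 ± 6.00 and *Calb1* at 43.7 ± 5.37, and neighbours in this series overlapped. A gap separated these from *Prox1* (20.9 ± 4.51 TPM) and *Zbtb20* (14.9 ± 1.57 TPM), which overlapped each other, and a second gap from *Dsp* (8.86 ± 2.32 TPM) and *Tdo2* (6.88 ± 1.59 TPM). In WT neocortex only *Calb1* (38.7 ± 4.70 TPM) and *Wfs1* (35.8 ± 5.95 TPM) were high, apart from *Zbtb20* (4.35 ± 0.285 TPM) and the others, of which *Dsp* was lowest at 0.216 ± 0.141 TPM. *Wfs1* and *Calb1* kept the first 2 places in miR-324-null neocortex, and *Fibcd1*, *Wfs1* and *C1ql2* overlapped in the first 3 places of miR-324-null hippocampus.

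Other genes of the same fields were read from lists. Over all 14894 genes tested, 2699 (18.1%) were called higher in WT hippocampus than in WT neocortex and 2679 lower. Of 10 other granule cell genes, 9 were higher and none lower in WT hippocampus than in WT neocortex, led by *Lct* (log2 fold change 5.64, SE 0.168) and *Il16* (3.51, SE 0.121), and *Npnt* was not called (-0.22). Of 5 other CA1 genes 3 were higher, *Gpr161* (2.71) and *Man1a* (1.44) most. Of 6 CA2 genes, 5 were higher, *Ntf3* (2.73) and *Rgs14* (1.44) most, and *Pcp4*, which neocortical deep layers also make, was lower (-0.93). All 5 CA3 genes were higher, *Iyd* (4.60) and *Grik4* (1.13) most. Of 6 neocortical layer genes 5 were lower and none higher. The summed level of the CA2 list did not separate the tissues, at 197 to 238 CPM in WT hippocampus and 210 to 286 CPM in WT neocortex. *Pcp4* alone held 78.0 to 112 CPM of this sum in WT hippocampus and 164 to 240 CPM in WT neocortex. The sum therefore mixes it with the 5 genes that were higher in hippocampus.

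In the hippocampus, the comparison asked which markers changed without miR-324. Of the 9 genes tested, 0 were called by edgeR's quasi-likelihood test, by DESeq2's Wald test or by limma, where edgeR called 0.115% of 14796 genes, and 0 had an unadjusted p under 0.05, against 11.1% of all genes. No marker had ranges that kept apart, against 2.55% of all genes. The log2 fold change was below 0 for 6 markers and above 0 for 3, with a median of -0.17, while 49.7% of all genes were below 0.

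*Dsp* had 9.83, 15.5, 28.9, 44.5 and 68.5 CPM in miR-324-null hippocampus replicates 1 to 5. Replicates 1, 2 and 3 were under every WT sample and replicate 5 above every one, so that the group spanned 6.96 times from lowest to highest against 2.06 times in WT. The log2 fold change was -0.48 (SE 0.401, adjusted p = 0.695 from edgeR's test). *Prox1* showed the same order, at 53.8, 65.0, 69.0, 97.2 and 134 CPM, again with 3 samples under and 1 above the WT range (log2 fold change -0.24, SE 0.219, adjusted p = 0.731, edgeR's test).

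The other granule cell markers varied less. *C1ql2* had 53.7, 68.9, 60.4, 53.7 and 88.4 CPM, all within the WT range (log2 fold change -0.11, SE 0.204). *Tdo2* ranged from 2.89 to 6.86 CPM, with replicate 1 alone under the WT samples (log2 fold change -0.22, SE 0.217). *Calb1* had 95.6, 125, 93.8, 104 and 136 CPM, with replicates 2 and 5 above all WT samples (log2 fold change 0.15, SE 0.106).

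Among the CA markers, *Fibcd1* had 223, 225, 138, 125 and 143 CPM in miR-324-null hippocampus. Replicates 1 and 2 were above the highest WT sample, replicate 4 was under the lowest and the other 2 were within the WT range (log2 fold change 0.25, SE 0.163, adjusted p = 0.599, edgeR's test). *Wfs1* had 77.0, 58.2, 207, 181 and 96.8 CPM, with 3 samples under and 2 above all WT samples (log2 fold change -0.23, SE 0.297, adjusted p = 0.827, edgeR's test). *Spink8*, at 12.2 to 17.9 CPM, stayed close to WT, with replicates 2 and 5 (17.1 and 17.9 CPM) above the highest WT sample at 16.0 CPM (log2 fold change 0.11, SE 0.119).

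*Zbtb20*, the only marker with seed matches, had 156, 136, 178, 209 and 215 CPM in miR-324-null hippocampus, with replicates 1 and 2 under the lowest WT sample. Its log2 fold change was -0.17 (SE 0.121, adjusted p = 0.634, edgeR's test).

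The same samples therefore stood apart for several markers: miR-324-null replicates 1 and 2 were low in *Prox1*, *Dsp*, *Wfs1* and *Zbtb20* and high in *Fibcd1*. Mossy cell markers (4 genes, none at 0 in a hippocampus sample) summed to 124 and 102 CPM in these 2 samples and to between 51.2 and 82.7 CPM in the other 8. One of them, *Calb2*, which encodes the calcium buffer calretinin, had 74.9 and 54.6 CPM there and 11.1 to 39.4 CPM in the others. The rest of that list did not follow it between genotypes. The log2 fold change in hippocampus was 0.58 for *Calb2*, 0.12 for *Csf2rb2*, 0.05 for *Ajap1* and -0.26 for *Drd2*, none of them called. Choroid plexus markers (5 genes, *Ttr* among them) summed to 4482 CPM in WT hippocampus replicate 3 and 3852 CPM in miR-324-null replicate 5, the samples with the most *Dsp* in their groups, and to between 38.3 and 131 CPM in the other 8. The same 2 samples also had the most *C1ql2* (97.8 and 88.4 CPM) and the highest sum of the other granule cell genes (555 and 626 CPM) in their groups. Without these 2 samples, an alternative chosen after seeing the data, the log2 fold change moved to -0.78 for *Dsp* (adjusted p = 0.449), -0.43 for *Prox1* (adjusted p = 0.424) and 0.38 for *Fibcd1* (adjusted p = 0.445, all from edgeR's test), with 0 markers called. Without miR-324-null replicate 5 alone *Dsp* was at -0.92 (adjusted p = 0.318, edgeR's test). The part of dissection, of mossy cells or of choroid plexus in these values was not tested.

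**Figure D2:**
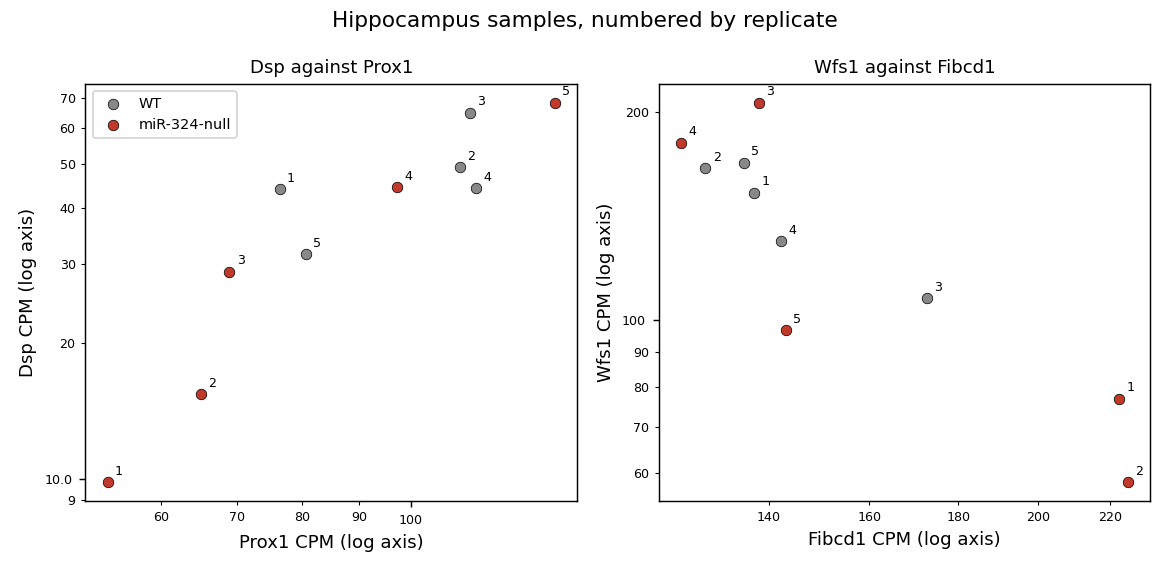
*Dsp* against *Prox1* and *Wfs1* against *Fibcd1* in the 10 hippocampus samples, in CPM on log axes, with replicate numbers. WT samples are grey and miR-324-null samples red; miR-324-null replicates 1 and 2 lie at the low end of *Prox1* and *Dsp*, and at the high end of *Fibcd1* and low end of *Wfs1*.

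Correlations of the markers between hippocampus samples were computed after each genotype's mean was removed, and no pair passed correction. Pearson's r of log2 CPM was computed for all 36 pairs over the 10 samples, with exact permutation within genotype, and the lowest adjusted p was 0.0909 (for Spearman's rho 0.0504). *Prox1* and *Dsp* had r = 0.89 (exact permutation p = 0.00451, rho = 0.89 with p = 0.0084), and 0.73 without the 2 samples farthest from the median of *Prox1*. *Zbtb20* had r = 0.86 with *Prox1* (exact permutation p = 0.00799, rho = 0.90 with p = 0.00535) and r = 0.85 with *Dsp* (exact permutation p = 0.0124, rho = 0.89 with p = 0.0084). *Fibcd1* and *Wfs1*, both CA markers, had r = -0.88 (exact permutation p = 0.0202, adjusted p = 0.0909, rho = -0.85 with p = 0.031), and -0.78 without the 2 samples farthest on *Fibcd1*. On log2(TPM + 1) the pair *Prox1* and *Dsp* had r = 0.91 and the lowest adjusted p over pairs was 0.0863, from the same exact permutation. These points share library, depth and composition.

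The balance of fields differed as much between samples as between genotypes. The summed TPM of *Prox1*, *Dsp*, *C1ql2* and *Tdo2* over that of *Fibcd1* and *Spink8* was 0.695, 1.11, 1.21, 1.29 and 0.867 in WT hippocampus and 0.506, 0.634, 0.899, 0.963 and 1.16 in miR-324-null hippocampus. Null replicates 1 and 2 were under all WT samples and the others within their range. *Calb1* and *Wfs1* were left out of this ratio after their neocortical levels were seen, and with both included the ratio was 0.636, 0.859, 0.638, 0.750 and 1.18 in miR-324-null hippocampus against 0.658 to 1.14 in WT, with replicates 1 and 3 in place of 1 and 2 under the WT range.

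The spread of a marker within its genotype was set against that of all genes, as the pooled SD of log2 CPM. In the hippocampus it was 0.84 for *Dsp*, at percentile 98.4 of 14796 genes, 0.59 for *Wfs1* (percentile 96.1) and 0.42 for *Prox1* (percentile 90.9), and *Calb1* was the least variable marker at 0.19 (percentile 63.4). The median gene had 0.15.

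The gene whose log2 CPM most resembled each marker over the 10 hippocampus samples, among 14286 genes and with genotype means removed, was *Pdyn* for *Prox1* (r = 0.99), *Wipf3* for *Dsp* (0.99), *Htr4* for *C1ql2* (0.97) and *Camk1d* for *Tdo2* (0.98). For the others it was *Mindy3* for *Calb1* (0.96), *Psme1* for *Fibcd1* (0.97), *Mc4r* for *Spink8* (0.96), *Grb7* for *Wfs1* (0.98) and *Gpr155* for *Zbtb20* (0.96). *Pdyn* encodes the precursor of dynorphins, peptides of granule cells. Each r is the highest among 14286 genes over only 10 samples, and how high the best would be by chance was not tested.

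In the neocortex, the same comparison gave values that pointed one way for all markers tested, without any passing edgeR's test. Of the 9 genes, 7 passed edgeR's default filter on low counts, which left out *Tdo2* and *Spink8*. Of these 7, 0 were called by edgeR's quasi-likelihood test, where 0.315% of 14930 genes were called, and 5 had an unadjusted p under 0.05, where 12.2% of all genes did. DESeq2's Wald test, which called 240 of these 14930 genes, called 2 of the 7, *Fibcd1* (adjusted p = 6.0e-04) and *Prox1* (adjusted p = 0.0307). By limma 29 genes were called and 0 of the 7. All 7 had a log2 fold change above 0, with a median of 0.60, against 51.9% and 0.00 (0.00461) over all genes, and over all 9 markers the mean level was higher in miR-324-null samples for 8.

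*Fibcd1* had 15.6, 13.3, 10.3, 23.3 and 7.87 CPM in miR-324-null neocortex against 5.17 to 7.67 CPM in WT. It was the only marker whose groups did not overlap, where 1.01% of all genes were higher in this way, and replicate 5 cleared the highest WT sample narrowly. Its log2 fold change was 1.16 (SE 0.247, adjusted p = 0.0854, edgeR's quasi-likelihood test). Set against the mean of WT hippocampus, these were 5.49% to 16.2% in miR-324-null and 3.61% to 5.35% in WT neocortex.

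*Prox1* had 27.0, 27.3, 19.8, 23.9 and 17.2 CPM, with replicates 1 to 4 above every WT sample and replicate 5 within the WT range (log2 fold change 0.47, SE 0.119, adjusted p = 0.149, edgeR's test). *Zbtb20* had 72.2, 106, 79.0, 81.8 and 44.6 CPM, so that the first 4 were above and replicate 5 below all WT samples (log2 fold change 0.44, SE 0.165, adjusted p = 0.305, edgeR's test). *Wfs1* had 153, 103, 128, 125 and 61.0 CPM, again with 4 samples above the WT range (log2 fold change 0.60, SE 0.203, adjusted p = 0.259, edgeR's test).

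*C1ql2* had 15.0, 5.15, 1.66, 6.60 and 2.44 CPM, with 3 samples above all WT samples (log2 fold change 1.25, SE 0.572, adjusted p = 0.402, edgeR's test). *Dsp* had 4.69, 3.54, 0.475, 0.220 and 1.19 CPM, with replicates 1 and 2 above the WT range (log2 fold change 1.42, SE 0.761, adjusted p = 0.488, edgeR's test). *Calb1*, at 74.2 to 113 CPM, overlapped with WT (log2 fold change 0.07, SE 0.115).

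*Spink8*, which the filter left out, had 1.90, 1.41, 0.713, 1.10 and 0.271 CPM in miR-324-null neocortex, with 4 samples above every WT sample. With no filter on low counts its log2 fold change was 1.61 (SE 0.489, adjusted p = 0.223, edgeR's test). *Tdo2* had 0.330 to 1.21 CPM, overlapping with WT, and -0.02 in that fit.

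**Figure D3:**
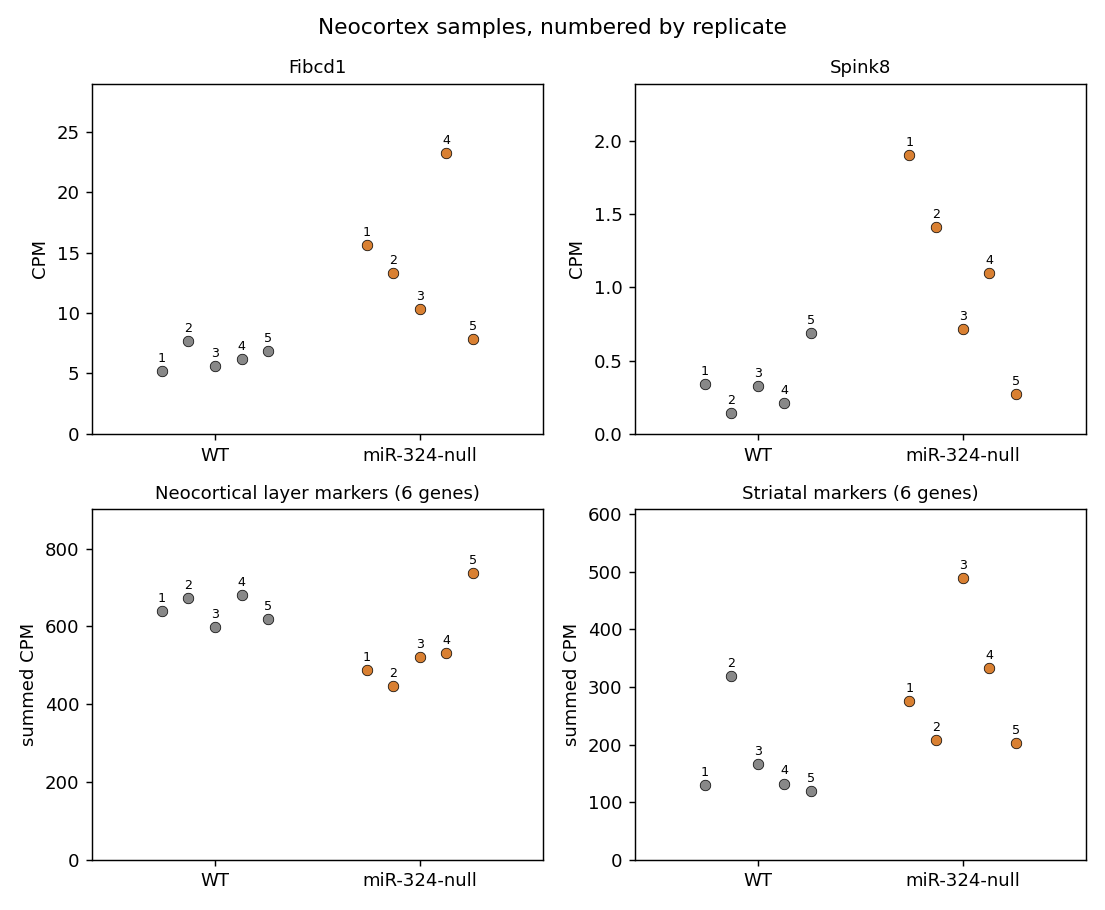
*Fibcd1* and *Spink8* in CPM (top) and the summed CPM of 6 neocortical layer and of 6 striatal marker genes (bottom) in the 10 neocortex samples, numbered by replicate; all axes start at 0. miR-324-null replicate 5 has the lowest *Fibcd1* and *Spink8* of its group and the highest layer sum, 736 CPM.

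The count depended on a single sample, miR-324-null neocortex replicate 5. Each sample was left out in turn, and this fit is singled out because of its result. Replicate 5 was the lowest of its group for every marker called without it, so leaving it out in itself raised their differences. Without this sample, 5 of 9 markers tested were called by edgeR's quasi-likelihood test, where 3.76% of 15071 genes were. They were *Fibcd1* (log2 fold change 1.32, adjusted p = 0.00643), *Zbtb20* (0.59, adjusted p = 0.00654), *Prox1* (0.56, adjusted p = 0.00794), *Wfs1* (0.76, adjusted p = 0.0109) and *Spink8* (1.87, adjusted p = 0.026), each from edgeR's test. With no filter on low counts and all samples, *Fibcd1* alone of the markers was called (adjusted p = 0.0419, edgeR's test), where 66 of 23625 genes were.

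Markers of other tissue were read in the same samples. The 6 neocortical layer genes all had a log2 fold change below 0 (median -0.24, none called) and summed to 599 to 680 CPM in WT and to 488, 448, 520, 531 and 736 CPM in miR-324-null neocortex, the last being replicate 5. The 6 striatal projection neuron genes, *Drd1* and *Adora2a* among them, all had one above 0 (median 1.05, none called), with sums of 120 to 319 CPM in WT and 276, 209, 489, 332 and 202 CPM in miR-324-null neocortex. Sample by sample the striatal sum and the markers shared part of their order. miR-324-null replicate 5 had the lowest sum, *Fibcd1* and *Spink8* of its group. Replicate 3, with the highest sum, had the second lowest *Fibcd1* and *Spink8*, and replicate 4, with the next highest sum, the most *Fibcd1*. WT replicate 2 had the highest sum and *Fibcd1* of its group and the lowest *Spink8*. No layer or striatal gene was at 0 in any sample. Without the 4 neocortex samples of highest striatal sum, chosen after seeing the data (WT replicate 2 and miR-324-null replicates 1, 3 and 4), *Fibcd1* was at 0.83 (adjusted p = 0.586), *Prox1* at 0.41 (adjusted p = 0.957), *Wfs1* at 0.17 and *C1ql2* at 0.33, with 0 markers called by edgeR's test and only 2 miR-324-null samples left. The part of neighbouring tissue in the neocortical values was not tested.

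Of the other field genes, the granule cell gene *Dock10*, a guanine nucleotide exchange factor, was the 1 of 10 on its list called higher in miR-324-null neocortex (log2 fold change 0.47, SE 0.0887, adjusted p = 0.0486, edgeR's quasi-likelihood test). None of the 5 other CA1, 6 CA2 and 4 tested CA3 genes was called, and all 6 CA2 genes were above 0 (median 0.48). In the hippocampus none of the field lists held a called gene, with medians of -0.19 for the other granule cell genes, 0.01 for other CA1, -0.09 for CA2 and 0.09 for CA3. The other granule cell genes summed to 302, 347, 393, 481 and 626 CPM in miR-324-null hippocampus replicates 1 to 5, against 400 to 555 CPM in WT, the same order as *Prox1* and *Dsp*. The other lists held no called gene in either tissue, with medians in hippocampus and neocortex of 0.09 and 0.55 for 4 mossy cell genes, -0.05 and 0.20 for the 2 tested of 4 immature granule neuron genes, -0.33 and 0.06 for 5 thalamic genes and 0.15 and 0.05 for 6 interneuron genes. The medians were -0.11 and -0.05 for 5 astrocyte genes, -0.11 and 0.10 for 4 oligodendrocyte genes, -0.27 and -0.12 for 3 endothelial genes and -0.13 and 0.01 for 3 microglial genes. For choroid plexus genes it was -0.38 over the 3 tested in hippocampus and 2.24 over the 2 tested in neocortex.

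**Figure D4:**
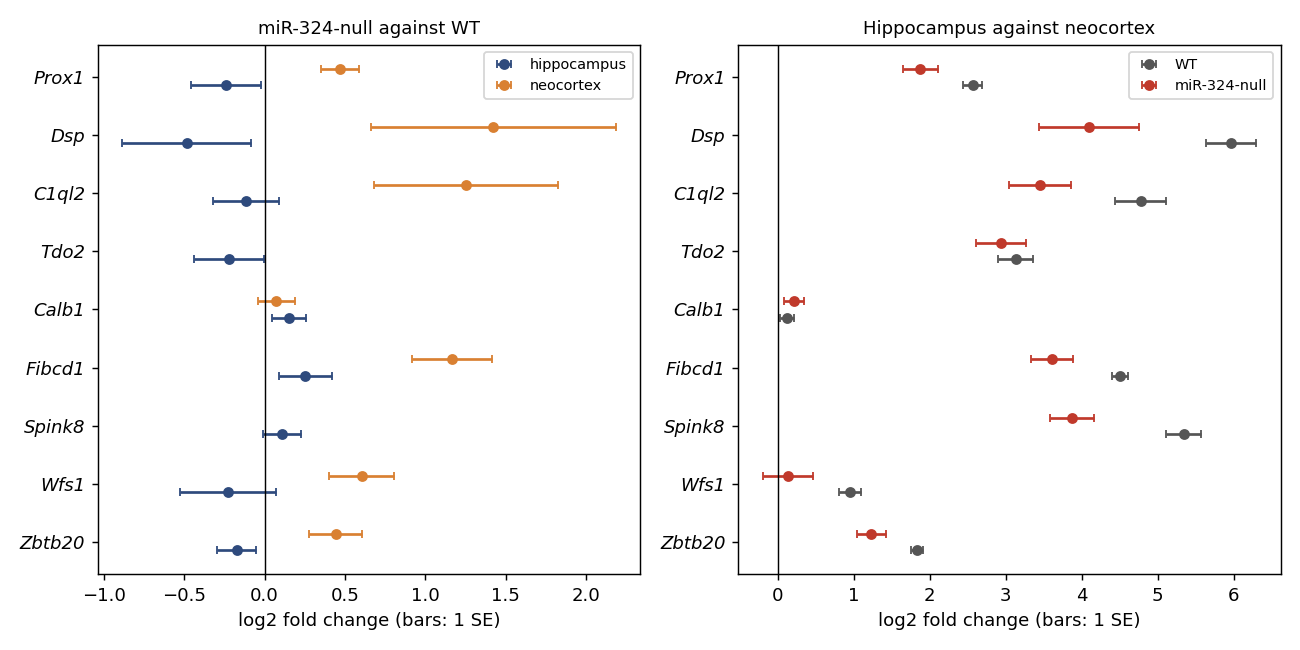
Log2 fold changes of the markers with 1 SE, for miR-324-null against WT in each tissue (left) and hippocampus against neocortex in each genotype (right). *Tdo2* and *Spink8* were not tested between genotypes in the neocortex; in the left panel all neocortical values lie above 0, and in the right panel the miR-324-null values lie under the WT values for every marker but *Calb1*.

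In miR-324-null mice, 7 of the 9 markers were higher in hippocampus than in neocortex by edgeR's quasi-likelihood test, where 13.8% of 15033 genes were, and the same 7 did not overlap, where 10.1% of all genes were higher in this way. Both comparisons of tissue draw on samples that also enter the genotype comparisons, so their values are given side by side. *Dsp* had a log2 fold change of 4.10 (SE 0.659) against 5.96 in WT, *Spink8* 3.87 (SE 0.292) against 5.34, *Fibcd1* 3.61 (SE 0.275) against 4.51 and *C1ql2* 3.45 (SE 0.410) against 4.78. *Tdo2* had 2.94 (SE 0.331) against 3.13, *Prox1* 1.88 (SE 0.230) against 2.57 and *Zbtb20* 1.23 (SE 0.192) against 1.83. The genes not called were *Calb1* (0.21, SE 0.127) and *Wfs1* (0.13, SE 0.331, adjusted p = 0.804, edgeR's test), whose tissues overlapped widely.

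Whether the genotype difference depended on tissue was tested as an interaction over all 20 samples. Of the 9 markers, 0 were called by edgeR's quasi-likelihood test, where 0.0195% of 15391 genes were, and 0 by DESeq2 or limma. The term, the genotype difference in hippocampus minus that in neocortex, was below 0 for 8 markers, where 50.0% of all genes were, and 5 had an unadjusted p under 0.05, where 5.57% of all genes did. It was -1.48 for *Spink8* (SE 0.469, adjusted p = 0.775), -0.90 for *Fibcd1* (SE 0.323, adjusted p = 0.843), -0.61 for *Zbtb20* (SE 0.221, adjusted p = 0.843), -0.70 for *Prox1* (SE 0.283, adjusted p = 0.863) and -1.32 for *C1ql2* (SE 0.608, adjusted p = 0.880), all from edgeR's test. For *Dsp* it was -1.87 (SE 0.985) and for *Wfs1* -0.82 (SE 0.396). *Tdo2* (-0.20) and *Calb1* (0.09) were closest to 0, and both changed sign without the 3 samples rich in choroid plexus markers. *Spink8*, counted among the 8 and the 5, and *Tdo2*, counted among the 8, were left out by the filter in neocortex alone. Here they passed it through hippocampus, with 2 to 28 and 6 to 24 counts in neocortex samples.

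The use of transcripts was a further readout. The share of a gene's TPM in its main transcript was compared for 19 gene and contrast pairs with at least 10 counts in every sample by a two-sided exact permutation test, and 0 passed correction (lowest adjusted p = 0.151). *Wfs1* took 73.2% ± 9.39 (SD, n = 5) of its TPM from Wfs1-201 in miR-324-null and 59.6% ± 8.94 in WT neocortex (exact permutation p = 0.0476, adjusted p = 0.339). *Zbtb20* took 84.6% ± 4.83 from Zbtb20-204 in miR-324-null hippocampus and 71.8% ± 3.54 in miR-324-null neocortex (exact permutation p = 0.00794, the smallest that 5 against 5 samples allow, adjusted p = 0.151). As a share of estimated counts rather than TPM, this long transcript of 26901 bases held 97.3% to 99.4% of the counts of *Zbtb20* in every sample, so the long 3′UTR with the seed matches was part of the transcript that the counts were given to.

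The markers lie on 8 chromosomes of GRCm38, with *Prox1* (chr1:190118035-190170714) and *C1ql2* (chr1:120340582-120343174) on the same one. The others are *Dsp* (chr13:38151294-38198577), *Tdo2* (chr3:81957090-81976202), *Calb1* (chr4:15881264-15908064), *Fibcd1* (chr2:31813290-31846005), *Spink8* (chr9:109812280-109826633), *Wfs1* (chr5:36966104-36989205) and *Zbtb20* (chr16:42875881-43642602). The values of each are those of the whole gene, exons of all its annotated transcripts together.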

How the data were processed

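Stranded mRNA libraries of 20 samples were sequenced, and the authors pseudo-aligned the reads with kallisto to the Ensembl mouse transcriptome of GRCm38, per the paper. The submitters' processing notes name another build, but the transcript identifiers in the files are mouse. The deposited files hold, per transcript, estimated counts and TPM, the latter computed by kallisto from counts and effective lengths. Whether kallisto used the strand is not given in the sources used here. Of 115270 transcripts, 113580 had an identifier in a GENCODE annotation of GRCm38; the remaining 1690, with at most 0.556% of a sample's counts, were dropped. For each gene the estimated counts of its transcripts were added up, then rounded.

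Groups came from the sample labels, 5 samples in each of 4 groups. Nothing in the labels says which samples share a mouse, and p values measure the spread between these samples. The main test was edgeR 4.0.16's quasi-likelihood test in R 4.3.3, with TMM scaling, the default filter and Benjamini-Hochberg adjustment over all genes, called at 0.05; each comparison was fitted on its own 10 samples and the interaction on all 20. CPM for levels were TMM-scaled over all samples, and log2 CPM used a prior count of 2. Exact permutation tests used Python 3.11.15, numpy 2.4.6, scipy 1.17.1 and pandas 2.3.3. On simulated counts in which 200 genes had a log2 change of 1, edgeR recovered 87% among 14677 genes for the hippocampus comparison of genotypes, and 88.5% among 14801 for the neocortex. The changed genes were drawn at random from all genes, and the markers vary more than the median gene. *Dsp* had a pooled SD of 0.84 in hippocampus and 1.46 in neocortex, against medians of 0.15 and 0.13. These shares therefore do not say how often such a change in a marker would be called. At these depths a count of 0 allows up to 3 counts, which covers counting error only.

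The 9 markers and the marker lists were chosen with earlier results of these data known. All 9 markers are named in every comparison; genes of lists are named if called between genotypes, or for the field lists if among the 2 of largest change between tissues; the most similar gene of each marker had to have a mean of at least 1 CPM. *Npnt*, *Pcp4*, *Ttr*, *Calb2*, *Drd1* and *Adora2a* were chosen for mention once their values were known. *Csf2rb2*, *Ajap1* and *Drd2* are named as the rest of the list of *Calb2*. The lists cover other granule cell, other CA1, CA2, CA3, mossy cell, immature granule neuron, neocortical layer, striatal, thalamic, choroid plexus, interneuron, astrocyte, oligodendrocyte, endothelial and microglial genes. Tried as alternatives were the size factors of DESeq2, no filter, at least 10 counts in every sample, DESeq2 1.42.0, a transcript-length offset, limma 3.58.1 on log2(TPM + 1), all 20 samples in one fit, a block for the replicate number, and leaving out each sample.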

Additional observations from a re-analysis of the deposited data

Results flagged for a closer look

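The highest or lowest sample of each group of 5 was compared with the others by its gap over the group's range, against Dixon's 95% critical value, for the markers, the summed CPM of the marker lists and the total of estimated counts of a sample. Of 100 groups 12 exceeded it, where chance gives about 1 in 20.

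2 were markers in the same sample, WT neocortex replicate 4. *Calb1* stood at 70.4 CPM there, under the 4 others at 92.9 to 101. *Wfs1* stood at 51.5 CPM there, under the 4 others at 75.3 to 85.0.

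Of the lists, CA2 genes summed to 197 CPM in WT hippocampus replicate 4, the lowest of its group. CA3 genes summed to 142 CPM in miR-324-null neocortex replicate 2, the highest of its group. Neocortical layer genes summed to 736 CPM in miR-324-null neocortex replicate 5, the sample whose absence changed the calls of the markers. Striatal genes summed to 319 CPM in WT neocortex replicate 2. Choroid plexus genes summed to 4482 CPM in WT hippocampus replicate 3, to 3852 CPM (3851.5) in miR-324-null hippocampus replicate 5 and to 794 CPM in miR-324-null neocortex replicate 2. Oligodendrocyte genes summed to 4026 CPM in miR-324-null hippocampus replicate 5, the lowest of its group, and to 7120 CPM in miR-324-null neocortex replicate 2, the highest of its group. Endothelial genes summed to 180 CPM (180.058) in miR-324-null hippocampus replicate 5.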

How the results depend on the processing

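The number of markers called between genotypes in the neocortex was 0, but 1 with no filter and 2 with DESeq2's Wald test, and 0 to 5 with each sample left out in turn. The number called between tissues fell from 8 to 4 in WT and from 7 to 4 in miR-324-null mice with at least 10 counts required in every sample, a filter that left 5 and 6 markers to test. Both other counts stayed at 0 under all alternatives. Of 356 values of single markers under the alternatives that kept every sample or left out samples rich in other markers, 348 kept direction and call. Signs changed for *Calb1* between genotypes in the neocortex (-0.083 without striatal-marker-rich samples), *Wfs1* between tissues in miR-324-null mice (-0.018 with limma), and in the interaction for *Tdo2* (0.18) and *Calb1* (-0.056) without choroid-plexus-rich samples and for *Calb1* with limma (-0.030), and the cause was not tested. With 1 sample left out, values crossed 0 for *C1ql2* in the hippocampus (-0.25 to 0.034), *Calb1* in the neocortex (-0.015 to 0.15), *Wfs1* between tissues in miR-324-null mice (-0.13 to 0.31), and *Tdo2* (-0.38 to 0.18) and *Calb1* (-0.00096 to 0.17) in the interaction. DESeq2 called 139 genes in the hippocampus where edgeR called 17, and 240 in the neocortex where edgeR called 47.

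In no comparison did every pair of samples of the same number correlate over 0.1 in their deviations from the group means, so the numbers were not taken as pairs. The correlations ran from -0.24 to 0.17 and from -0.12 to 0.20 between genotypes in hippocampus and neocortex, and from -0.15 to 0.10 between tissues in WT. Between tissues in miR-324-null mice they ran from -0.04 to 0.23, with 3 of 5 over 0.1 and 3 of 5 samples correlating best with their own number, against 2 of 5 in WT and 0 and 1 of 5 between genotypes, a hint from the data and not from the design. With the replicate block, 0 markers were called between genotypes in either tissue, 8 and 7 between tissues and 0 in the interaction, as without it.

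Neocortical *Dsp*, *Tdo2* and *Spink8* rest on few counts, and depth limits what their values can show.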
